A study of Mus musculus with 8 samples.

Results

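Transcripts of 40 genes that carry glucose into the cell, split it to pyruvate and lactate, store it as glycogen and pass pyruvate to the mitochondrion were measured in the ventricles of tumor-bearing and vehicle-injected male mice. The 40 genes were chosen by name, from glucose transporters to the pyruvate dehydrogenase complex and glycogen enzymes, and were found among the 43346 genes of the deposited count table. All 40 passed the filter on low counts that left 16111 genes for testing, the lowest count of the 40 in any mouse being 77.

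The RNA came from the ventricles of 8 male C57BL/6 mice, of which 4 had received 1000000 LLC1 cells, a mouse lung carcinoma line, and 4 the vehicle, phosphate-buffered saline (PBS). Mice were 7 weeks old at injection, and tissue was taken 14 days later. Per the methods, cells were placed under the skin of the left flank, so the hearts came from animals with 1 tumor cell line outside the heart, and the ventricle was taken as whole tissue. The labels name no engineered allele. The comparison asks which cardiac transcripts differ when such a tumor is present. Mice are called by group and label code, for example PBS 1-1.

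A heart draws most of its energy from fatty acids and covers the remainder with glucose, lactate and ketones. Glucose enters through GLUT4 (Slc2a4) and GLUT1 (Slc2a1), is trapped by hexokinase, and is committed to glycolysis by phosphofructokinase. The resulting pyruvate either becomes lactate or enters mitochondria through a carrier made of MPC1 and MPC2, where the pyruvate dehydrogenase complex turns it into acetyl-CoA. Glycogen is the local glucose store, built by glycogen synthase and emptied by glycogen phosphorylase.

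Library totals were 15342214 to 19747596 counts in LLC1 mice and 12480706 to 16192158 in PBS mice. The lowest total belonged to PBS 1-1, which also stood apart on the second principal component of log expression (25.2% of variance). In PBS 1-1 the 57-base gene Gm23935 had 161881 counts, against 2690 to 5857 in the other mice, and Yam1 took 4.69% of counts, against at most 1.35% elsewhere. These 2 genes were chosen after their values were seen. Among PBS mice, PBS 1-1 was the lowest for 20 of the 40 glucose genes and the highest for 12, while over all genes tested it was the lowest for 35.1% and the highest for 31.5%. Values that moved by more than 1.5 times without this mouse are given without it as well where the log2 fold change was at least 0.05 in size, and the counts of genes without it were added after its values had been seen.

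The tissue carried the marks of ventricle. Summed over 8 cardiomyocyte markers, expression was 25202 to 27724 counts per 1000000 (CPM) per kilobase in LLC1 mice and 23597 to 24588 in PBS mice. The groups did not overlap in this sum, and the exact permutation p of 0.0286 is the smallest that 4 against 4 can give. Of the 8 markers, 2 (Myh6, Mybpc3) were higher at a false discovery rate (FDR) under 0.05 (edgeR's quasi-likelihood test) and 0 were lower. Ryr2 and Actc1 had log2 fold changes below 0 (-0.17 and -0.05), and that of Pln was 0.03. Among markers of other heart cells, 2 of 6 endothelial markers (Kdr, Cldn5), 4 of 7 fibroblast markers (Col1a1, Col1a2, Col3a1, Lum) and 2 of 5 macrophage markers (Mrc1, Lyz2) were lower, and none of these 18 was higher. Summed levels ran from 234 to 266 in LLC1 mice and 251 to 367 in PBS mice for endothelial markers, from 272 to 313 and 298 to 352 for fibroblast markers, and from 130 to 169 and 147 to 225 for macrophage markers, all in CPM per kilobase. Without PBS 1-1 the LLC1 mice lay below all PBS mice for each of these 3 lists, whose lowest PBS sums were then 294, 325 and 196. Smooth muscle and pericyte markers summed to 210 to 225 and 246 to 293, with no overlap between groups (exact permutation p = 0.0286) and 0 of 6 single genes past the threshold. The lowest FDR among them was that of Acta2 (log2 fold change -0.54, edgeR FDR 0.059). The neutrophil markers S100a8 and S100a9 were higher but had at most 22 counts, and Ly6g had at most 1. Erythroid markers, from blood in the tissue, summed to 1817 to 6598 and 1973 to 3936 with 0 of 5 past the threshold, and no lymphocyte marker passed the filter on low counts. Atrial markers summed to 131 to 391 and 141 to 286, nearly all of it Nppa, a peptide hormone gene that ventricle can also express, while Sln had at most 6 counts and 0 of the 3 tested passed. Adipocyte markers summed to 25.9 to 29.4 and 21.9 to 26.5, which did not overlap without PBS 1-1. Most of that was Cidea, the 1 gene of the list tested (log2 fold change 0.24, edgeR FDR 0.095), with Adipoq at no more than 4 counts and Ucp1 at 0. Skeletal muscle markers summed to 1.02 to 1.498 and 1.31 to 1.95, with Myh4 at 0 counts and 0 of 1 tested past the threshold. In whole tissue, fewer cells of a type and less RNA per cell cannot be told apart, and the part of cell composition in the glucose gene results was not tested.

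In edgeR's quasi-likelihood test, 1 of the 40 genes rose and 0 fell at an FDR under 0.05. Over all 16111 genes, 4.12% rose and 4.61% fell, so the 1 call in 40 (2.5%) did not exceed the background. At a looser threshold, 14 of 40 (35%) were higher at an unadjusted p under 0.05, against 12.4% of all genes, and 1 was lower, against 13%. The 4 LLC1 mice all lay above the 4 PBS mice for 11 of the 40 genes (27.5%), against 8.89% of all genes, and all below them for 0, against 8.27%. DESeq2, an alternative count test, called 11 higher (27.5%, against 5.77% of the 15782 genes it gave an FDR) and 0 lower (against 5.37%). Those 11 were Aldoa, Slc2a4, Pygm, Pgm2, Pygb, Ldhb, Gys1, Gpi1, Hk1, Tpi1 and Pfkm. The median log2 fold change was 0.13 over the 40 genes and -0.01 over all genes.

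Some of the 40 genes share exon sequence with another annotated gene, and whether counting used strand is not given in the sources used here, so their levels are uncertain to that extent. On the other strand the shared part was 23.1% of the exon bases of Mpc1 (4930506C21Rik), 16.1% of Pdha1 (Map3k15), 13.6% of Pgm2 (Itgb3bp), 11.5% of Gpi1 (Gm26762) and 6.47% of Gys1 (Ruvbl2). On the same strand it was 17.4% of Pfkfb2 (Gm29427), 15.3% of Pkm (Gm49759) and 10.2% of Pfkm (Gm26513). For Aldoa it was 0.859%.

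Leaving out PBS 1-1, 13 of the 40 genes were higher at an unadjusted p under 0.05 (13.4% of all genes) and 0 were lower (13.7%), LLC1 mice lay above PBS mice for 12 (12.6% of all genes), and the median log2 fold change was 0.11. Scaling to library totals alone moved the median of the 40 genes to 0.07 and that of all genes to -0.06, and called 0 of the 40 higher, against 1.4% of all genes called higher and 4.92% lower. With gene length offsets 8 of the 40 were called higher, against 5.78% of all genes called higher and 3.88% lower. With GC offsets the median was 0.09 over the 40 genes and 0.01 over all genes. That fit called 1 of the 40 higher, against 4.31% of all genes called higher and 4.26% lower. The steps differed in GC content, at 39.2% to 48.0% for pyruvate entry genes and 49.7% to 57.7% for lower glycolysis genes. The part of GC content in the difference between steps was not tested. Leaving out 1 mouse at a time, 4 genes other than Aldoa became higher at an edgeR FDR under 0.05 in some fits. These were Slc2a1 and Gpi1 without PBS 2-5 (log2 fold changes 0.41 and 0.27, with 4.99% of all genes called higher), Hk1 and Pygb without PBS 2-1 (0.31 for each, 2.25%), and Pygb without LLC1 1-5 (0.31, 1.92%).

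Of the 40 values, 18 with a log2 fold change of at least 0.05 in size moved by over 1.5 times in at least 1 of 12 other fits of all mice, most often with GC offsets or library totals. Over those fits Pfkm ran from 0.09 to 0.17, Pfkl from 0.07 to 0.18, Pfkp from 0.06 to 0.20, Pfkfb1 from 0.10 to 0.28 and Pfkfb2 from 0.14 to 0.30. In lower glycolysis and lactate handling, Pgam2 ran from 0.05 to 0.17, Eno1 from 0.0037 to 0.13, Eno3 from 0.0053 to 0.08, Pkm from -0.0013 to 0.08, Ldha from 0.08 to 0.16 and Slc16a1 from -0.16 to 0.0086. Around pyruvate entry and glycogen, Mpc1 ran from -0.16 to -0.07, Mpc2 from -0.16 to 0.03, Pdha1 from 0.08 to 0.21, Dld from -0.11 to 0.07, Pdp1 from -0.15 to 0.04, Gbe1 from -0.10 to 0.06 and Ugp2 from -0.32 to -0.12. None of these 18 genes passed the FDR threshold in the TMM fit of all mice.

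**Figure D1:**
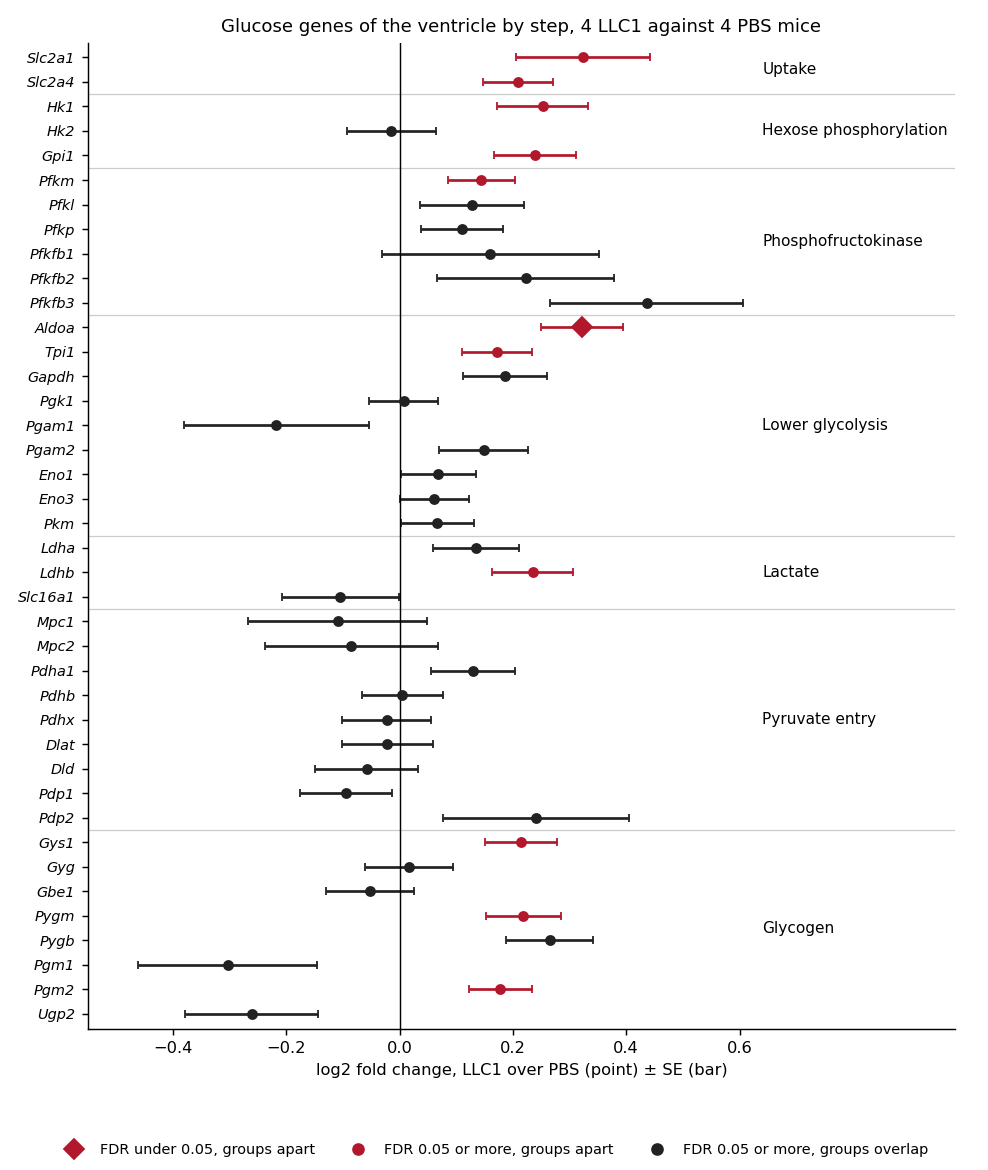
The 40 glucose genes by step, with log2 fold change (LLC1 over PBS, 4 mice each) on the x axis and SE as bars. Most points from glucose uptake to lactate lie to the right of 0, those of pyruvate entry lie around 0, and the diamond marks Aldoa, the 1 gene with FDR under 0.05.

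Both glucose transporters had higher values in LLC1 mice without passing the threshold in the main fit (edgeR quasi-likelihood, TMM, all mice). Slc2a4, the insulin-responsive transporter of muscle, was at 523, 556, 562 and 517 CPM in LLC1 mice and 448, 459, 497 and 462 CPM in PBS mice. The groups did not overlap, the lowest LLC1 mouse lying above the highest PBS mouse. The log2 fold change was 0.21 (SE 0.06) with an FDR of 0.055 by edgeR's quasi-likelihood test. Slc2a1, the basal transporter, was far scarcer per length, at 6.01 CPM per kilobase in PBS mice against 134 for Slc2a4. Its log2 fold change was 0.32 (SE 0.12, edgeR FDR 0.111), and was 0.21 without PBS 1-1, the lowest of the PBS mice at 12.7 CPM. With the first number of the label code as a term, that of Slc2a1 was 0.38 with an edgeR FDR of 0.047. In that fit 5.25% of all genes were called higher.

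Hk1 and Hk2, the hexokinases that phosphorylate glucose on entry, had different values. Hk1 was at 228 ± 5.29 CPM (SD, n = 4) in LLC1 mice and 191 ± 22.4 in PBS mice, with a log2 fold change of 0.25 (SE 0.08, edgeR FDR 0.071) and groups that did not overlap. Hk2, the more abundant form per length, was at 381 ± 29.6 and 385 ± 32.5 CPM, a log2 fold change of -0.01 (SE 0.08). The ratio Hk1 to Hk2 within each mouse was 1.21 times higher in LLC1 mice, but the groups overlapped and the exact permutation test gave p = 0.0571, or 0.429 adjusted over the 15 gene pairs compared. Gpi1, which turns glucose-6-phosphate into fructose-6-phosphate, was the most abundant gene of this step per length. It was at 805, 731, 748 and 735 CPM in LLC1 mice and 562, 659, 653 and 683 in PBS mice. All LLC1 mice were above all PBS mice, with PBS 1-1 the lowest. The log2 fold change of Gpi1 was 0.24 (SE 0.07, edgeR FDR 0.062), and 0.18 without PBS 1-1.

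Phosphofructokinase transcripts were mostly the muscle form. Pfkm was at 1483, 1450, 1509 and 1483 CPM in LLC1 mice and 1267, 1367, 1397 and 1330 in PBS mice, a narrow range within each group and no overlap between them. The log2 fold change was 0.14 (SE 0.06) with an edgeR FDR of 0.150. The liver form Pfkl and the platelet form Pfkp reached 0.0871 and 0.0191 of the Pfkm level per length, as the mean ratio within PBS mice, and their log2 fold changes of 0.13 and 0.11 did not pass. That of Pfkl was 0.06 without PBS 1-1 and 0.07 without LLC1 1-5, and that of Pfkp 0.06 without LLC1 1-5. The bifunctional enzymes that make and break fructose-2,6-bisphosphate, the activator of phosphofructokinase, varied more among mice. Pfkfb3 had the highest log2 fold change of the 40 genes, 0.44 (SE 0.17, edgeR FDR 0.133), at 15.4 ± 3.01 CPM in LLC1 mice and 11.3 ± 2.54 in PBS mice, with overlapping groups. Pfkfb2, the heart form, was at 121 to 163 CPM in LLC1 mice and 84.3 to 155 CPM in PBS mice. Its log2 fold change of 0.22 became 0.38 (edgeR FDR 0.069) without PBS 1-1, the highest PBS mouse, but 0.09 without PBS 2-5, the lowest, and 0.13 without LLC1 1-5. Pfkfb1 spanned 9.04 to 20.8 CPM within PBS mice alone, and its log2 fold change of 0.16 became -0.006 without PBS 1-3 and 0.42 without PBS 2-5.

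Aldoa, the aldolase that splits fructose-1,6-bisphosphate into 2 trioses in muscle, was the gene that rose. It was at 3542, 3264, 3421 and 3099 CPM in LLC1 mice and 2401, 2757, 2673 and 2833 in PBS mice. The lowest LLC1 mouse lay above the highest PBS mouse, and PBS 1-1 was again the lowest. The log2 fold change was 0.32 (SE 0.07), or 25.0% more, with an FDR of 0.020 by edgeR's quasi-likelihood test. Without PBS 1-1 it was 0.27 with an FDR of 0.016. Aldoa stayed under the threshold in 11 of 12 other ways of testing all mice and in 3 of 8 fits that left out 1 mouse. In the other 5 fits (without LLC1 1-2, 1-3 or 1-5, or without PBS 1-3 or 2-1) its edgeR FDR was 0.052 to 0.060. Per length, Aldoa was the second most abundant of the 40 genes in PBS mice, at 968 CPM per kilobase.

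**Figure D2:**
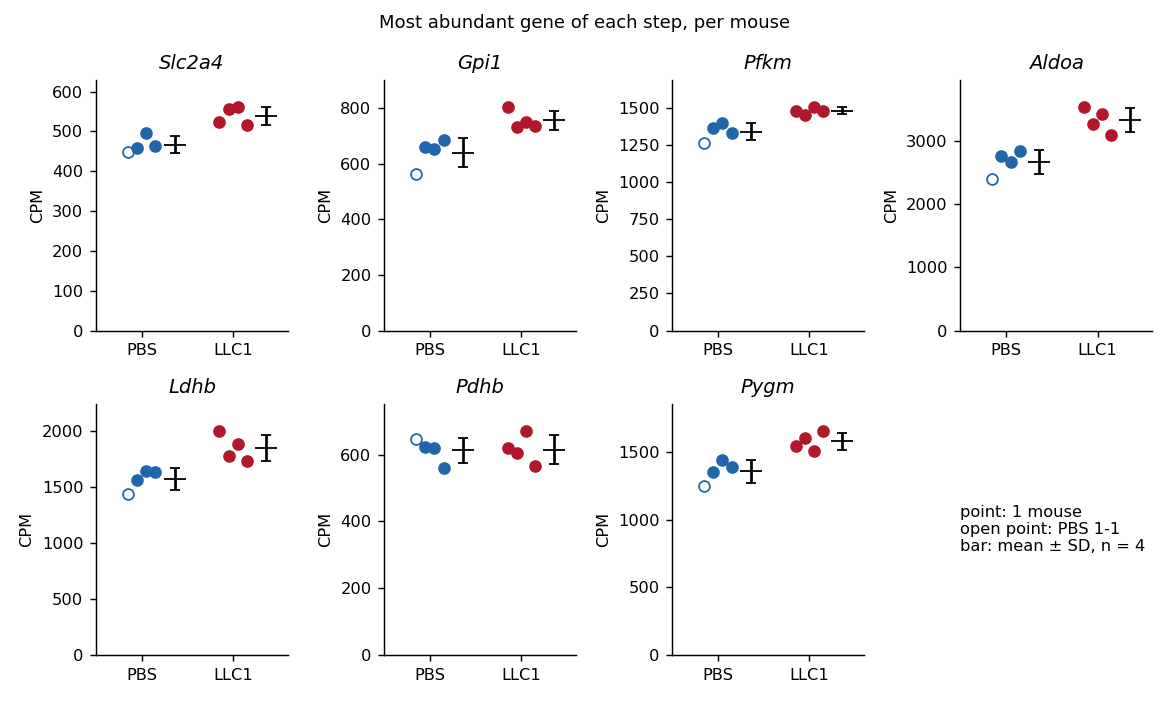
TMM-normalized CPM per mouse (y axis, from 0) for the most abundant gene of each step per length, with the mean and SD of 4 mice beside the points and PBS 1-1 as an open point. LLC1 mice lie above all PBS mice for Slc2a4, Gpi1, Pfkm, Aldoa, Ldhb and Pygm, and the groups overlap for Pdhb.

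The aldolase gene has several start sites, and the sequences before 2 of them are shown with those of Pygm, a muscle gene whose groups did not overlap, and of Ldha, whose groups overlapped. Each run is the 250 bases before a RefSeq start in GRCm38.p6, the patch release of mm10, written 5′ to 3′ on the gene's strand. Capitals mark ACGTG on either strand, the core letters of sites bound by the hypoxia-inducible factors, a family known for activating glycolytic genes. The first Aldoa run lies at chr7:126800448-126800697 and the second at chr7:126799255-126799504, both on the minus strand. Ldha is at chr7:46845554-46845803 and Pygm at chr19:6384158-6384407, both on the plus strand.
Aldoa upstream start: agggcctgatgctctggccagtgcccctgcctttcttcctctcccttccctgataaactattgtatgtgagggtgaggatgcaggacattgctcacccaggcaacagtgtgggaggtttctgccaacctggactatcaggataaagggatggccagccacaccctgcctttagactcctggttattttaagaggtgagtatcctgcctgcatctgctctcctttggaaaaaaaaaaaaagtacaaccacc
Aldoa downstream start: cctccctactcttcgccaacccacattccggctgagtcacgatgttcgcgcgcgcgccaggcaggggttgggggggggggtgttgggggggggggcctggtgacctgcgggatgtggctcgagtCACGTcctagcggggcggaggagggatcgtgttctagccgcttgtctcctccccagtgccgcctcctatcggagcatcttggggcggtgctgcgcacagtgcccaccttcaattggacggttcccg
Ldha: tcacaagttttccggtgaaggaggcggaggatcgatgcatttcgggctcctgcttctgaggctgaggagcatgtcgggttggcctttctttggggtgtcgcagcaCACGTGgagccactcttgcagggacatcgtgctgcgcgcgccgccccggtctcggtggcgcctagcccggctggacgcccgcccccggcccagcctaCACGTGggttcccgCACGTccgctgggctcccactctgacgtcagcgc
Pygm: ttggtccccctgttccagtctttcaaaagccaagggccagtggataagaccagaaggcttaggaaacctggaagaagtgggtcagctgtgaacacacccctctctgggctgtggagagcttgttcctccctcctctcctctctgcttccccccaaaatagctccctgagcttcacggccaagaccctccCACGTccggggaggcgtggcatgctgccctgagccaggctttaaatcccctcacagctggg

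The letters were absent before the upstream Aldoa start, where the 250 bases held 0 CpG pairs, and occurred 1 time before the downstream start shown, in a run with 21 CpG pairs. They also occurred 1 time before the other listed start, whose run (chr7:126799179-126799428) overlaps the one shown and has 19 CpG pairs. They occurred 5 times before the Ldha start shown, counting both strands of each palindromic CACGTG, 0 times before the other listed Ldha start (chr7:46846832-46847081), and 1 time before Pygm. Starts were listed for 38 of the 40 genes, and 18 of these (47.4%) had the letters before at least 1 start, against 18.5% of the 27025 genes in the RefSeq table. Counted by start site, the shares were 39.3% of 56 and 16.6% of 32851. The median GC content of these runs was 60.4% for the glucose genes and 52.4% for all, and its part in the shares was not tested. Ldha, with 5 matches at 1 of 2 starts, had a log2 fold change of 0.13 (SE 0.08), and Aldoa, with 1 at 2 of 3 starts, 0.32. Slc2a4 and Pdp1 were not among the genes with a listed start.

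The other enzymes of lower glycolysis spread around a median log2 fold change of 0.07. Tpi1, which interconverts the trioses, was at 756 ± 37.2 CPM in LLC1 mice and 671 ± 22.8 in PBS mice, a log2 fold change of 0.17 (SE 0.06, edgeR FDR 0.107) with groups that did not overlap. Gapdh, the dehydrogenase of the next step, had 0.19 (SE 0.07, edgeR FDR 0.138) with overlapping groups. Gapdh shares near-identical sequence with 96 other annotated genes, whose counts came to 9.66% of its own. The muscle forms that follow, Pgam2 and Eno3, had 0.15 and 0.06, and pyruvate kinase, Pkm, had 0.07. Without PBS 1-1 that of Pgam2 was 0.08 and that of Pkm 0.02, and without LLC1 1-2 that of Eno3 was 0.03. Pgk1 was at 337 ± 19.5 and 335 ± 8.59 CPM, a log2 fold change of 0.01 (SE 0.06). Among the non-muscle forms, Eno1 had 0.07 and Pgam1 had -0.22 (SE 0.16), which became 0.04 and -0.03 without PBS 1-1. Pgam1 was at -0.36 without PBS 2-1. Near-identical genes, sought as for Gapdh, had counts that came to 12.6% of those of Pgam1, 5.16% of Gpi1 and 3.37% of Ldhb. For Eno1 the share was 3.19% and for Pgk1 1.3%.

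Lactate dehydrogenase transcripts were led by the heart form. Ldhb, which favors lactate use, was at 1998, 1773, 1879 and 1732 CPM in LLC1 mice and 1434, 1565, 1644 and 1630 in PBS mice. Every LLC1 mouse was above every PBS mouse. The log2 fold change of Ldhb was 0.23 (SE 0.07, edgeR FDR 0.061), and 0.19 without PBS 1-1. In PBS mice Ldhb was the most abundant of the 40 genes per length, at 999 CPM per kilobase. Ldha, the muscle form that favors lactate formation, was at 805 ± 68.7 and 734 ± 44.9 CPM (SD, n = 4) with overlapping groups, and its log2 fold change of 0.13 was 0.09 without LLC1 1-2. The Ldha to Ldhb ratio per length was 0.229 in LLC1 mice and 0.246 in PBS mice (exact permutation p = 0.171, adjusted 0.514). Slc16a1, the monocarboxylate transporter MCT1 that carries lactate across the membrane, had a log2 fold change of -0.10 (SE 0.10). It was -0.0096 without PBS 1-1, the highest PBS mouse at 324 CPM, and -0.20 without PBS 2-5.

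Where pyruvate enters the mitochondrion, 0 of 9 genes had an unadjusted p under 0.05, against 12.4% of all genes higher and 13% lower, a number too small to read against that share. The median log2 fold change was -0.02, with 3 genes above 0. Without PBS 1-1 the median was 0.05, with 7 of 9 above 0. Pdhb, the beta subunit of the first pyruvate dehydrogenase enzyme, was at 619, 603, 671 and 565 CPM in LLC1 mice and 648, 621, 619 and 561 in PBS mice. The groups overlapped along nearly their whole range. Its log2 fold change was 0.01 (SE 0.07, edgeR FDR 0.975). Pdha1, the alpha subunit, had 0.13 (SE 0.07, edgeR FDR 0.298), and 0.18 without PBS 1-1 (unadjusted p = 0.019 and FDR 0.102 in edgeR), but 0.07 without PBS 2-5. The Pdha1 to Pdhb ratio was the 1 pair of 15 whose groups did not overlap, with log2 ratios of 1.09, 1.10, 1.02 and 1.117 in LLC1 mice and 1.01, 0.91, 0.98 and 0.92 in PBS mice. The exact permutation p for this ratio was 0.0286, or 0.429 adjusted over the pairs.

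The remaining subunits lay close to 0, with log2 fold changes of -0.02 for Dlat and Pdhx and -0.06 for Dld, the last of these at 0.01 without PBS 1-1 and -0.13 without PBS 2-5. The phosphatases that switch the complex on, Pdp1 and Pdp2, had -0.09 (SE 0.08) and 0.24 (SE 0.16). Leaving out 1 mouse, Pdp1 ran from -0.13 to -0.02 and Pdp2 from 0.15 to 0.38. Both carrier genes turned direction with 1 mouse. Mpc1 was at 207, 173, 187 and 180 CPM in LLC1 mice and 288, 164, 196 and 158 in PBS mice, and Mpc2 at 235, 199, 227 and 191 CPM in LLC1 mice and 319.5, 213, 188 and 184 in PBS mice. PBS 1-1 was the highest mouse for both genes. The log2 fold changes of -0.11 (SE 0.16) and -0.09 (SE 0.15) became 0.11 and 0.13 without it, and -0.21 and -0.18 without PBS 2-5. Mpc1 also has a near-identical copy, Mpc1-ps, whose counts came to 56.8% of its own. The copy had 1809 to 2521 counts in LLC1 mice and 784 to 1782 in PBS mice (log2 fold change 0.63, SE 0.19, edgeR FDR 0.060), so the level of Mpc1 is uncertain by the reads the 2 genes share.

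Among the 8 glycogen genes, 4 were higher and 1 lower at an unadjusted p under 0.05, where 12.4% and 13% of all genes were. Pygm, the muscle phosphorylase that releases glucose from glycogen, was at 1544, 1603, 1506 and 1655 CPM in LLC1 mice and 1245, 1348, 1440 and 1387 in PBS mice. All LLC1 mice were above all PBS mice. Its log2 fold change was 0.22 (SE 0.07, edgeR FDR 0.062), and 0.18 without PBS 1-1. Pygb, the brain phosphorylase that heart also makes, had 0.26 (SE 0.08, edgeR FDR 0.053) at 1216 ± 87.4 and 1012 ± 77.7 CPM. Its groups overlapped through 1 LLC1 mouse at 1089 and 1 PBS mouse at 1109. Gys1, the muscle glycogen synthase that works in the other direction, had 0.21 (SE 0.06, edgeR FDR 0.057) at 189 ± 9.36 and 163 ± 8.77 CPM, with no overlap. The Gys1 to Pygm log2 ratio was -3.06 in LLC1 mice and -3.05 in PBS mice, a difference of -0.005.

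The table's Pgm2 (ENSMUSG00000025791, chr4:99929414-99987294) is named Pgm1 in GENCODE M21, and its Pgm1 (ENSMUSG00000029171) is named Pgm2 there. The first, which links glucose-1-phosphate to glucose-6-phosphate, was at 300.1 ± 10.6 CPM in LLC1 mice and 265 ± 3.93 in PBS mice, a log2 fold change of 0.18 (SE 0.06, edgeR FDR 0.066) with no overlap. The second had 77 to 125 counts per mouse and a log2 fold change of -0.30 (SE 0.16). Ugp2, which makes the UDP-glucose that glycogen synthase uses, was the 1 gene lower at an unadjusted p under 0.05. It was at 222, 234, 253 and 217 CPM in LLC1 mice and 333, 291, 280 and 207 in PBS mice, a log2 fold change of -0.26 (SE 0.12, edgeR FDR 0.190). PBS 2-5 lay below all LLC1 mice. Without PBS 1-1 the value was -0.16, and without PBS 2-5 it was -0.38 with an FDR of 0.014, while GC offsets over all mice gave -0.12. The glycogen primer Gyg and the branching enzyme Gbe1 had 0.02 and -0.05, the latter at -0.01 without PBS 1-1 and -0.13 without PBS 2-5.

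**Figure D3:**
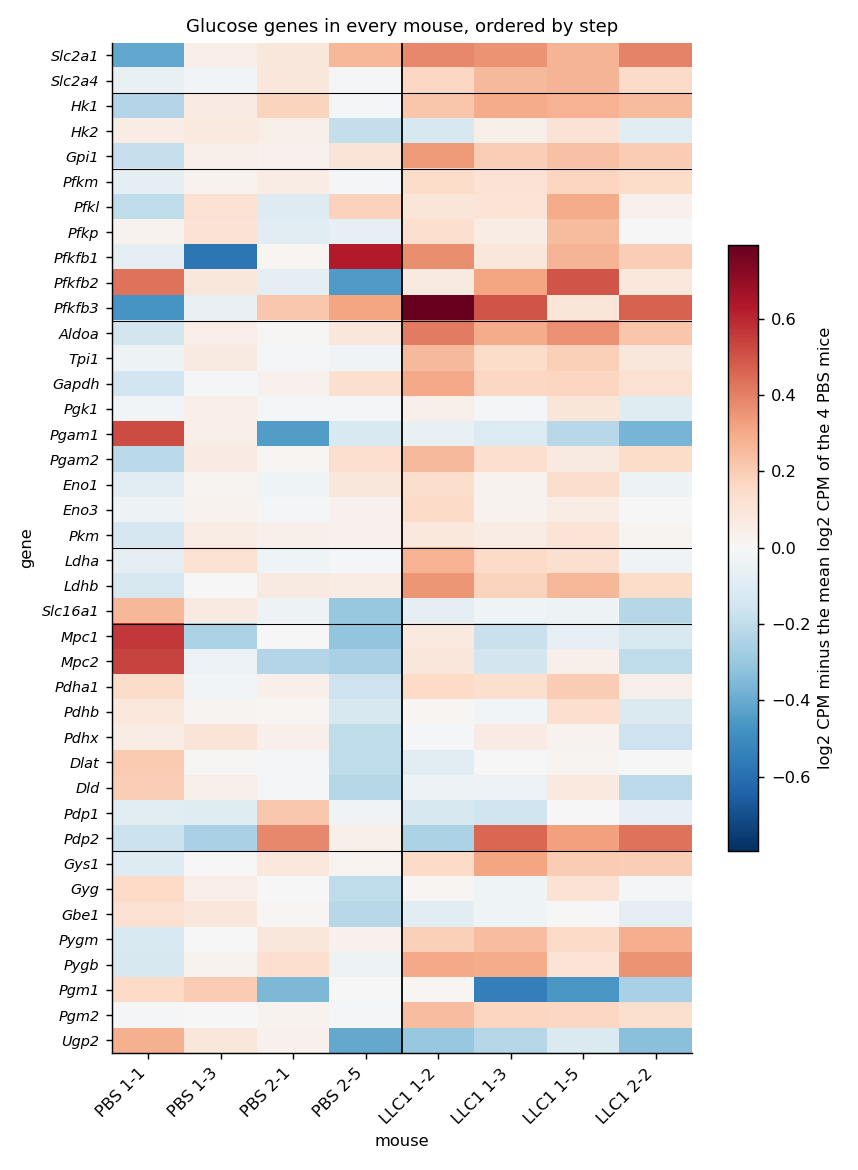
Every mouse (columns) and every glucose gene (rows, ordered by step), colored by log2 CPM minus the mean of the 4 PBS mice. Mpc1, Mpc2 and Pgam1 are highest in PBS 1-1, and Ugp2 is low in PBS 2-5 and in the LLC1 mice.

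The expression of 15 glycolysis genes from hexokinase to pyruvate kinase was also summed per mouse. With all mice the LLC1 to PBS ratio was above 1 on each scale used, but whether the groups overlapped, and the direction without PBS 1-1, depended on the scale. With length-scaled counts brought to a sum of 1000000 over all genes, the sums were 12705, 13108, 12838 and 13141 in LLC1 mice and 6372, 12948, 13110 and 13155 in PBS mice. The groups overlapped, and PBS 1-1 lay far below all other mice. In PBS 1-1 Gm23935 held 34.8% of the length-scaled total, against 0.748% to 1.44% elsewhere. The LLC1 to PBS ratio on this scale was 1.136 with all mice and 0.991 without PBS 1-1. With TMM scaling, which sets libraries equal over the bulk of genes, the sums were 5673, 5306, 5437 and 5183 CPM per kilobase in LLC1 mice and 4461, 4966, 4869 and 5026 in PBS mice. These groups did not overlap, with a ratio of 1.118, and 1.09 without PBS 1-1. The TMM scale was chosen for this sum after the first had been seen. On it, 6 of the 7 steps had all LLC1 mice above all PBS mice, pyruvate entry being the exception, and on the first scale 0 of 7 did. Abundant genes weigh most in such sums, and no share over sums of other genes was computed. Gene by gene, LLC1 mice lay above PBS mice for 2 of 2 uptake, 2 of 3 hexose phosphorylation and 1 of 6 phosphofructokinase genes. The same held for 2 of 9 lower glycolysis, 1 of 3 lactate and 3 of 8 glycogen genes.

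**Figure D4:**
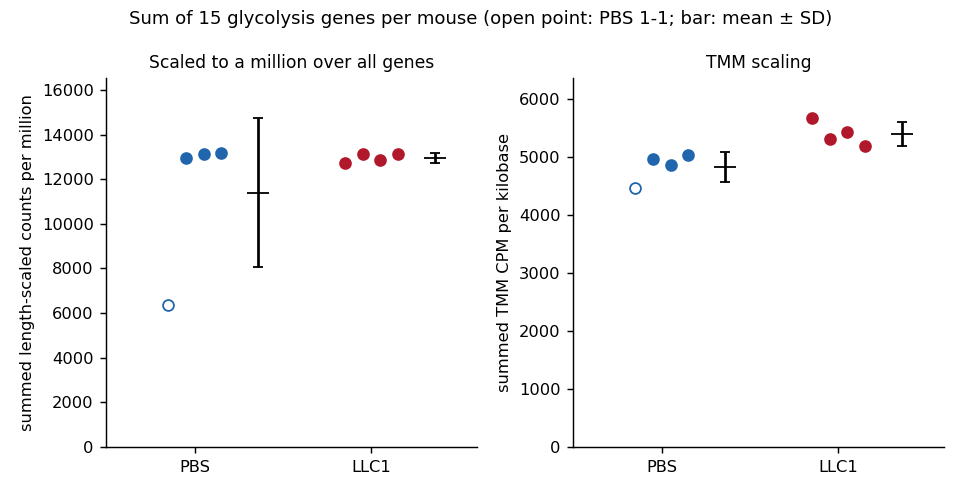
Sum of 15 glycolysis genes per mouse on 2 scales (y axes from 0), with mean and SD of 4 mice beside the points and PBS 1-1 as an open point. On the left, 3 PBS mice lie level with the LLC1 mice. On the right, all PBS mice lie below them.

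Of 92 further genes of the pathway, which were chosen with earlier results of these data known, 83 were tested, of which 6 rose and 3 fell by the same edgeR test and threshold. These shares, 7.23% and 3.61%, stand beside 4.12% and 4.61% of all genes, and the median log2 fold change was 0.01. Around the fate of pyruvate, Pdk2 rose. This kinase switches pyruvate dehydrogenase off. It was at 511, 540, 490 and 561 CPM in LLC1 mice and 356, 385, 444 and 437 in PBS mice, a log2 fold change of 0.37 (SE 0.08, edgeR FDR 0.017), while the genes of the complex itself did not pass. Pcx, which carboxylates pyruvate to oxaloacetate, rose by 0.29 (SE 0.07, edgeR FDR 0.033), and Me3, a mitochondrial malic enzyme that yields pyruvate, by 0.30 (SE 0.07, edgeR FDR 0.019). Slc16a4, a member of the monocarboxylate transporter family, fell by 0.68 on the log2 scale (SE 0.16, edgeR FDR 0.025), at 2.20 ± 0.372 and 3.54 ± 0.154 CPM.

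Around glycogen, Gaa, the lysosomal glucosidase that degrades glycogen, rose by 0.33 (SE 0.09, edgeR FDR 0.042). Phkg1, the catalytic subunit of the kinase that activates muscle phosphorylase, was at 23.8, 28.2, 32.9 and 27.1 CPM in LLC1 mice and 37.0, 40.03, 38.2 and 37.2 in PBS mice. It fell by 0.44 on the log2 scale (SE 0.09, edgeR FDR 0.014), with no overlap, while Pygm, the substrate of that kinase, had a log2 fold change of 0.22. Fbp2, the muscle fructose-bisphosphatase that runs against phosphofructokinase, was at 44.9, 44.0, 37.4 and 36.6 CPM in LLC1 mice and 30.0, 29.4, 30.5 and 30.3 in PBS mice. It had the lowest FDR of the list, 0.009 (edgeR), with a log2 fold change of 0.43 (SE 0.08). At uptake, the intracellular transporter Slc2a8 rose by 0.34 (SE 0.08, edgeR FDR 0.027), and Arrdc4, an arrestin-domain protein related to the glucose-sensing Txnip, fell by 0.53 on the log2 scale (SE 0.15, edgeR FDR 0.047) with overlapping groups. Isoforms of other tissues were near absent: Hkdc1, Aldoc, Pgk2, Pklr, Ldhc and Gys2 had at most 4 counts in any mouse.

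Of these 9 calls, that of Fbp2 was kept in all 8 fits that left out 1 mouse, and those of Me3 and Phkg1 in 7, both being lost without PBS 1-3. Pdk2 kept its call in 5 (lost without LLC1 1-3, LLC1 2-2 or PBS 1-3) and Slc16a4 in 4 (lost without LLC1 1-2, LLC1 1-5, PBS 1-3 or PBS 2-1). Slc2a8 and Pcx kept it in 3 each, both being lost without LLC1 1-3, LLC1 1-5, LLC1 2-2 or PBS 1-3, and Slc2a8 also without LLC1 1-2 and Pcx without PBS 2-1. Gaa kept it in 2, without PBS 1-1 or PBS 2-5, and Arrdc4 in 1, without PBS 2-5. In 12 other fits of all mice, Fbp2 and Phkg1 kept their calls in all 12. With library totals the calls of Slc2a8, Pdk2, Pcx, Me3 and Gaa were lost (edgeR FDR 0.069 to 0.177), and with GC offsets those of Slc2a8, Pcx, Gaa, Slc16a4 and Arrdc4 (edgeR FDR 0.055 to 0.077). That of Arrdc4 was also lost with limma-voom and with gene length offsets. Without PBS 1-1 the log2 fold change of Pdk2 was 0.32, that of Gaa 0.25 and that of Arrdc4 -0.45 (edgeR FDR 0.066).

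**Figure D5:**
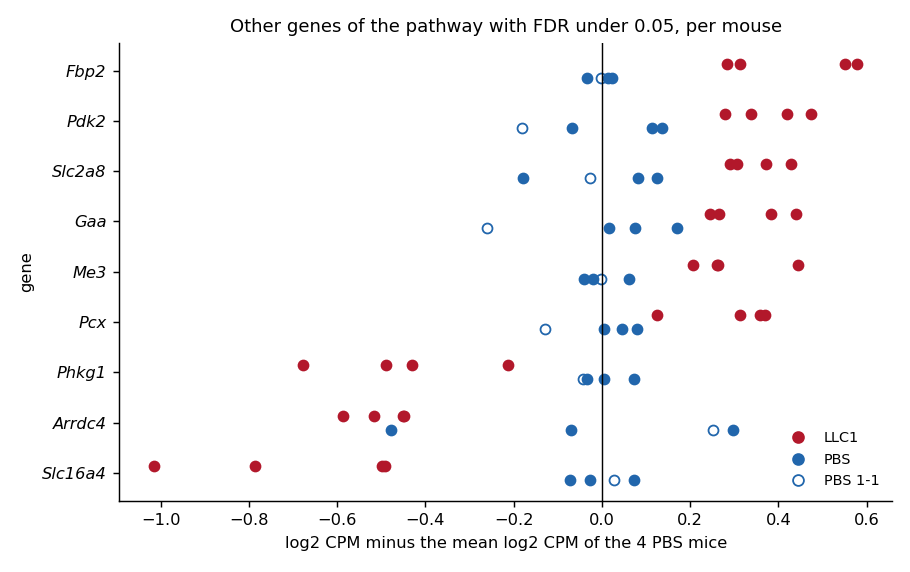
Each mouse as log2 CPM minus the mean of the PBS mice (x axis) for the 9 other pathway genes (y axis) with FDR under 0.05, PBS 1-1 as an open point. LLC1 mice lie to the right of all PBS mice for Fbp2, Pdk2, Slc2a8, Gaa, Me3 and Pcx and to the left for Phkg1 and Slc16a4, and for Arrdc4 1 PBS mouse lies among them.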

How the data were processed

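Ventricular RNA of 8 mice was sequenced by the authors on an Illumina HiSeq platform. The deposited table holds raw counts per gene, made by the authors without normalization, and the submitters' processing notes name CASAVA, STAR, featureCounts and mm10. Versions, annotation release and strand setting are not given in the sources used here. Groups were taken from the treatment labels, and p-values measure the spread between these mice.

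All genes were fitted with edgeR 4.0.16 (R 4.3.3): filterByExpr kept 16111 of 43346 genes, libraries were scaled by TMM, and glmQLFTest compared LLC1 with PBS, with Benjamini-Hochberg FDR under 0.05 over all genes tested. CPM are TMM-normalized counts per 1000000, and CPM per kilobase divides them by the table's gene length. The SE is the log2 fold change divided by the square root of F. Ratios within a mouse used a pseudocount of 0.5 counts and two-sided exact permutation tests over 70 arrangements. Alternatives used DESeq2 1.42.0, limma 3.58.1, other normalizations, filters and offsets, and each mouse left out. Mice were not paired across groups, because the sources used here do not say what the mouse codes stand for.

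The genes, steps and lists were chosen with earlier results of these data known. Genes given in full were those with FDR under 0.05 and the most abundant of each step per length. Other pathway genes were named when FDR was under 0.05, and any other was chosen after its values were seen. The scripts were tested on simulated data. With 4 against 4 simulated mice, the edgeR test called 1 of 199 genes given a log2 fold change of 0.3 and 87 of 199 given 0.5. Fewer genes were changed there than were called in these data, so those shares do not carry over directly. Near-identical copies were sought with BLAST 2.17.0 (at least 97% identity over 150 bases). Adgre1 and Tigar were not analysed here.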

Additional observations from a re-analysis of the deposited data

Results flagged for a closer look

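In 80 groups of 4 mice (40 genes in each treatment group), 3 had 1 mouse whose gap to the nearest other mouse, divided by the group's range, passed Dixon's 95% critical value. Chance flags about 1 in 20 such groups. Hk2 was 337 CPM in PBS 2-5, below the other PBS mice. Pgk1 was 348 CPM in PBS 1-3, above the other PBS mice. Pkm was 1344 CPM in PBS 1-1, below the other PBS mice. None of these 3 genes had an unadjusted p under 0.05.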

How the results depend on the processing

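The number of glucose genes called higher, 1 in the edgeR quasi-likelihood test with TMM scaling, was 0 with library totals only (1.4% of all genes called higher), 11 with DESeq2 (5.77%), 6 with limma-voom (4.23%), 5 with robust empirical Bayes (4.46%), 3 over all genes with a count (2.83%), 5 with the first number of the label code as a term (5.25%) and 8 with gene length offsets (5.78%). It was 0 to 3 leaving out 1 mouse at a time (1.3% to 5.56% of all genes), where the number called lower, 0, was 0 to 1 (2.02% to 6.38%). The 6 other pathway genes called higher became 1 with library totals only (1.4% of all genes) and 1 to 9 leaving out 1 mouse (1.3% to 5.56%), and the 3 called lower 0 to 4 leaving out 1 mouse (2.02% to 6.38%). Of 800 refitted log2 fold changes of the 40 genes, 716 kept direction and side of the threshold and 40, in 14 genes, reversed, all of them within 0.13 of 0. Over all genes with a count they were 0.000992 for Hk2. With gene length offsets they were 0.053 for Hk2, -0.034 for Pdhb, 0.021 for Pdhx, 0.033 for Dlat and 0.0076 for Gbe1. With GC offsets they were -0.0013 for Pkm, 0.0086 for Slc16a1, 0.027 for Mpc2, 0.052 for Pdhx, 0.035 for Dlat, 0.075 for Dld, 0.038 for Pdp1 and 0.065 for Gbe1. With library totals only they were -0.048 for Pgk1, -0.048 for Pdhb and -0.034 for Gyg. With the label term they were -0.014 for Pgk1, -0.028 for Pdhb and -0.014 for Gyg. Leaving out 1 mouse, the values ran from -0.078 to 0.023 for Hk2, -0.0061 to 0.42 for Pfkfb1, -0.023 to 0.036 for Pgk1, -0.21 to 0.11 for Mpc1, -0.18 to 0.13 for Mpc2, -0.039 to 0.039 for Pdhb, -0.090 to 0.018 for Pdhx, -0.090 to 0.051 for Dlat, -0.13 to 0.011 for Dld and -0.052 to 0.070 for Gyg. The causes were not tested. Across genes, log2 fold change had a Spearman correlation of 0.29 with GC content and -0.21 with length. The SE of the 40 log2 fold changes was 0.055 to 0.19 with 4 mice a group. No paired analysis was made, because the sources used here do not say what the label codes stand for. Of the codes, only 1-3 occurs in both groups.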
